A study of Mus musculus with 9 samples.

Results

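The tricarboxylic acid cycle enzymes described here are 9 genes: Cs, Idh3a, Idh3b, Idh3g, Ogdh, Suclg1, Sucla2, Fh1 and Mdh2. They were found by gene symbol among the 40879 symbols of the count and FPKM tables, and all 9 were present and had enough counts to be tested. RNA of spinal cord from male mice was sequenced in 9 libraries, 3 from sham-operated mice, 3 from mice with SNI and 3 from mice with SNI given LDN193189. SNI stands in pain research for spared nerve injury, in which branches of the sciatic nerve are cut and another is left intact, and LDN193189 is an inhibitor of the kinase activity of BMP type I receptors such as ACVR1. The series title names a shift of glucose metabolism towards glycolysis, which is the question that the cycle enzymes bear on. The extraction text speaks of cell lines although the samples are labelled spinal cord, and the labels give no strain, age, cord segment, time after surgery, dose, route or vehicle, and sham mice are not said to have received a vehicle. The labels call the replicates biosamples without saying that each is 1 animal, so the p-values here cover the variation among these libraries, which may be technical.

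The table columns carry the letters S, N and L with a number, read from the names as sham, SNI and SNI+LDN193189. If S stood for SNI, the directions between sham and SNI would turn. The libraries held 33432776 to 37190467 counts. Of the 6 nerve root (Schwann cell) markers, all were detected in every library, and their summed level was 615 to 4625 CPM in sham, 178 to 633 in SNI and 537 to 1388 in SNI+LDN193189. CPM is the count of a gene scaled to the library's total with TMM factors. Skeletal muscle markers summed to 660.4 CPM in sham replicate 1 and to at most 15.2 in any other library. Ganglion neuron markers summed to 32.0 CPM in sham replicate 2 and to at most 6.89 elsewhere. The sham libraries thus stood apart from each other in RNA of neighbouring tissue, and the enzymes' fold changes from sham are given below without each of them. The cord markers of neurons, oligodendrocytes and astrocytes were all detected in each library, and among microglial markers P2ry12 was listed at 0 in every library.

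The tricarboxylic acid cycle runs in the mitochondrial matrix and oxidises the acetyl group that pyruvate or fatty acids deliver, passing the electrons as NADH and FADH2 to the respiratory chain. Citrate synthase joins acetyl-CoA to oxaloacetate, isocitrate dehydrogenase and 2-oxoglutarate dehydrogenase release carbon dioxide, succinyl-CoA synthetase makes a nucleoside triphosphate, and fumarase and malate dehydrogenase return oxaloacetate. In nervous tissue the cycle supplies most ATP of neurons, and its 2-oxoglutarate is the carbon skeleton of the transmitters glutamate and GABA.

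On a scale that allows genes to be compared, FPKM (counts scaled to the gene's length and to the library's total), all 9 enzymes were abundant cord transcripts. Mdh2 had the highest level, with a mean of 199.7 ± 7.80 FPKM (SD, n = 9 libraries), above 99.1% of the genes tested. Idh3b followed at 125.0 ± 4.82 FPKM. Cs at 104 ± 4.10, Idh3a at 99.3 ± 3.06 and Sucla2 at 97.4 ± 3.39 FPKM formed the next step, and their ranges over the libraries overlapped. Suclg1 stood at 72.2 ± 3.12 and Idh3g at 71.6 ± 3.88 FPKM, also with overlapping ranges. Fh1 at 45.7 ± 1.32 and Ogdh at 43.3 ± 1.53 FPKM were the lowest, and overlapped as well. The gaps below Mdh2, below Idh3b, below Sucla2 and below Idh3g were such that the ranges over the libraries did not overlap. The authors' FPKM rest on 1 fixed length per gene, 7643 bases for Ogdh and 1273 for Mdh2, so a gene with many exons that are not all used would appear lower than it is.

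**Figure D1:**
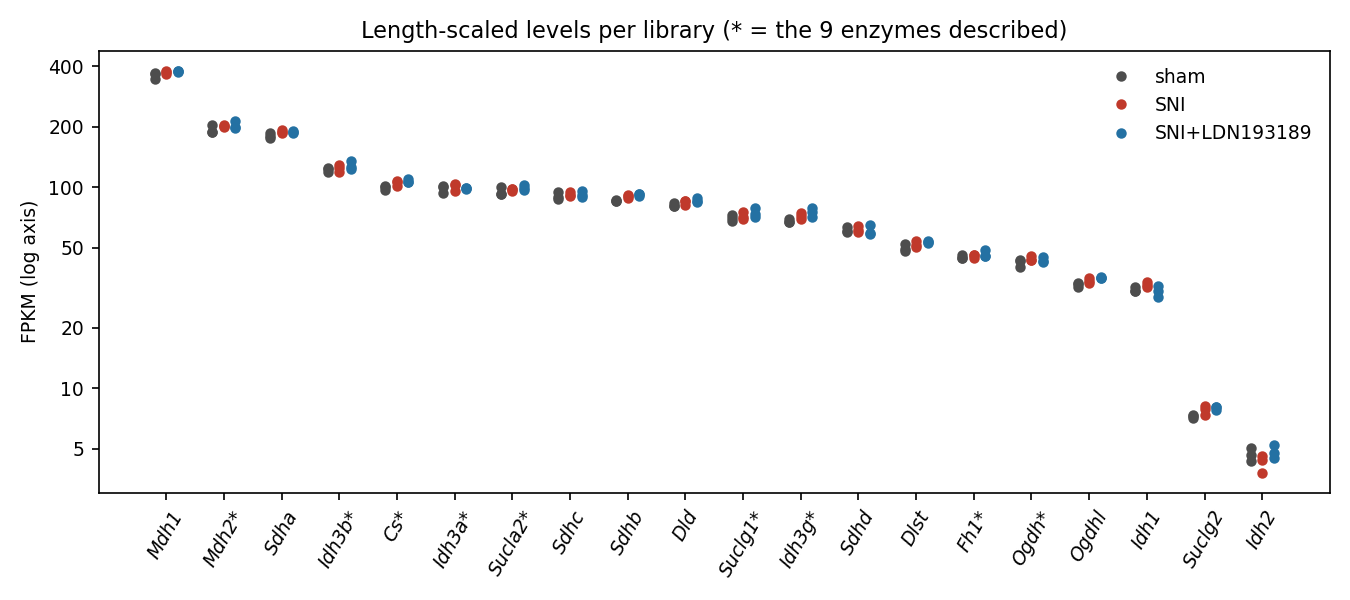
FPKM in each library (log axis) of the 9 enzymes, marked with an asterisk, and of 11 other genes of the cycle or its isoforms, ordered by mean level, with 1 point per library and colours for the 3 groups. Mdh2 was the highest of the 9 at a mean of 199.7 FPKM and Ogdh the lowest at 43.3, and Suclg2 and Idh2 lay far below all 9.

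Partner genes showed which isoforms had the higher FPKM in the cord, and the size of these ratios depends on the fixed length of each gene. In CPM, which is not scaled to length, sham means were 227 for Sucla2 and 30.3 for Suclg2. They were 321 for Ogdh and 122 for Ogdhl. Sucla2 encodes the beta subunit that makes succinyl-CoA synthetase form ATP, and Suclg2 the beta subunit that makes it form GTP. The FPKM of Sucla2 was 12.8 ± 0.639 times that of Suclg2 (SD, n = 9), with a range of 12.0 to 14.2. Sucla2 was 1.35 ± 0.0557 times as high as Suclg1, the alpha subunit that both forms share. The mitochondrial malate dehydrogenase Mdh2 had 0.539 ± 0.0144 times the FPKM of Mdh1, the cytosolic enzyme of the malate-aspartate shuttle. Ogdh, which encodes the E1 subunit of the 2-oxoglutarate dehydrogenase complex, was 1.27 ± 0.0481 times as high as Ogdhl, a brain-enriched relative. Idh2, the mitochondrial enzyme that uses NADP, ranged from 3.79 to 5.23 FPKM, while the NAD-dependent subunit Idh3a ranged from 93.8 to 103. The sum of FPKM over cells hides which cell type holds each isoform, and in such bulk samples fewer cells of a type and less RNA per cell cannot be told apart.

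The levels per library come next in the order of the reactions. Cs, citrate synthase, stood at 295, 308 and 281 CPM in sham replicates 1, 2 and 3, at 325, 303 and 309.6 in those of SNI, and at 317, 329.6 and 315 in those of SNI+LDN193189. The lowest SNI+LDN193189 library was above the highest sham library, while SNI overlapped with both groups. Cs lies on chromosome 10 at 128337734 to 128362479 in GRCm38 (GENCODE M21), on the plus strand.

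The 3 subunits of NAD-dependent isocitrate dehydrogenase, the rate-controlling step that calcium and ADP stimulate, did not share 1 pattern. Idh3a, the catalytic alpha subunit, stood at 241, 244 and 219.5 CPM in sham, at 249, 230.5 and 244 in SNI, and at 238, 240.2 and 235 in SNI+LDN193189, and the 3 groups overlapped. Idh3b, the beta subunit, stood at 184, 191 and 176 CPM in sham, at 192, 180.1 and 191 in SNI, and at 204, 188 and 191 in SNI+LDN193189, again with overlap. Idh3g, the regulatory gamma subunit, stood at 92.9, 95.3 and 94.5 CPM in sham, at 98.6, 101 and 102 in SNI, and at 105, 112 and 100.3 in SNI+LDN193189. For Idh3g every library of either injured group was above every sham library, and the injured groups overlapped with each other. Idh3a lies on chromosome 9 at 54586334 to 54604661, Idh3b on chromosome 2 at 130279309 to 130284547 and Idh3g on chromosome X at 73778963 to 73786897. Idh3b shares exon sequence with Nop56 on the opposite strand. The libraries were strand-marked, but whether the counting used the strand is not given in the sources used here, so reads of those genes may be mixed.

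Ogdh stood at 325, 338 and 301 CPM in sham, at 353, 331 and 328 in SNI, and at 345, 334 and 324 in SNI+LDN193189, with overlap between all groups. Suclg1 stood at 93.3, 102 and 94.8 CPM in sham, at 100.2, 96.3 and 102 in SNI, and at 109, 99.7 and 102 in SNI+LDN193189, and its groups overlapped too. Sucla2 stood at 219, 245 and 217 CPM in sham, at 238, 231 and 233 in SNI, and at 234, 249 and 239 in SNI+LDN193189. For Suclg1 and Sucla2 sham replicate 2 lay among the injured libraries and the other sham libraries were below all of them, and for Ogdh sham replicate 3 was the lowest of all. Ogdh lies on chromosome 11 at 6291633 to 6356642, Suclg1 on chromosome 6 at 73248382 to 73276911 and Sucla2 on chromosome 14 at 73525319 to 73596142.

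Fh1, fumarase, stood at 70.9, 73.3 and 73.4 CPM in sham, at 75.7, 72.3 and 73.9 in SNI, and at 78.8, 74.8 and 73.7 in SNI+LDN193189. The SNI+LDN193189 libraries were all above the sham libraries, by a gap smaller than the spread within either group. Mdh2 stood at 238, 264 and 235 CPM in sham, at 260.5, 255 and 255 in SNI, and at 252, 276 and 254 in SNI+LDN193189. Its 3 groups overlapped, and sham replicate 2 exceeded all SNI libraries. Fh1 lies on chromosome 1 at 175600374 to 175625635 and Mdh2 on chromosome 5 at 135778480 to 135790398. Over the 9 libraries the highest CPM was 1.11 (Fh1) to 1.20 (Idh3g) times the lowest. The SD of log2 CPM had a median of 0.067 over the 9 enzymes, beside 0.071 over the 2813 tested genes with mean levels inside their range.

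**Figure D2:**
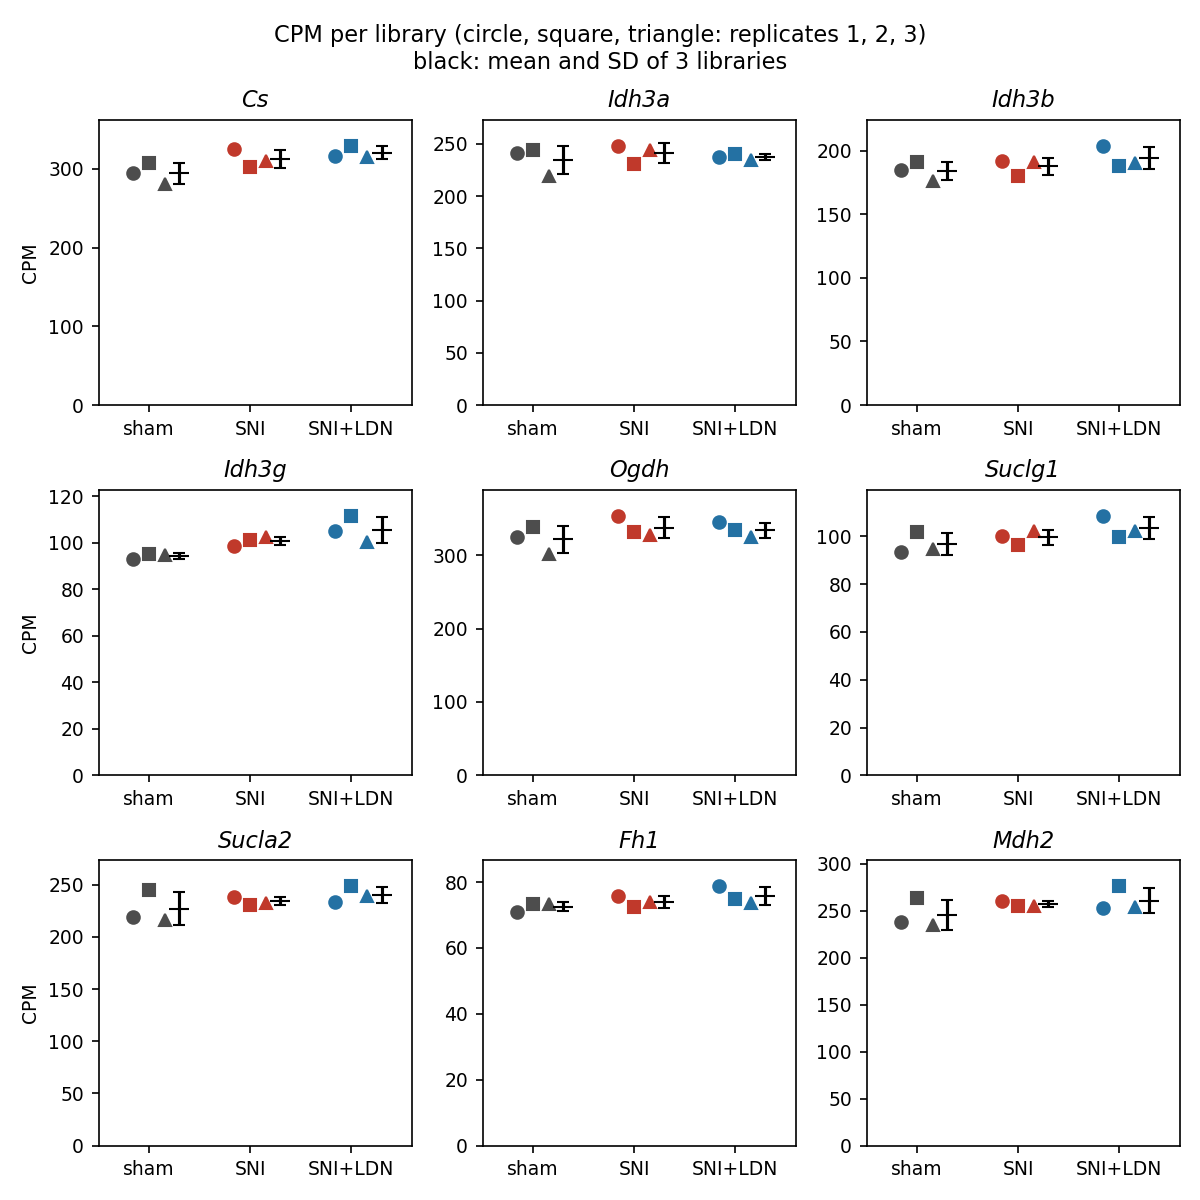
CPM of each enzyme in each library, by group, on axes that start at 0, with replicates 1, 2 and 3 as circle, square and triangle and the mean ± SD in black (SNI+LDN stands for SNI+LDN193189). All values lie close together, and Idh3g is the enzyme whose sham libraries (at most 95.3 CPM) lie below both injured groups (at least 98.6 CPM).

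SNI against sham asked what nerve injury did to the cycle enzymes of the cord. Every one of the 9 had a higher mean in SNI, by 1.02-fold to 1.07-fold, and 0 of them passed the test. The largest difference was that of Idh3g, at 101 ± 1.88 CPM in SNI and 94.2 ± 1.23 in sham (SD, n = 3 each), a log2 fold change of 0.096 (SE 0.053, 95% interval -0.016 to 0.21). Cs followed at 312 ± 11.5 and 294 ± 13.4 CPM, with a log2 fold change of 0.086 (SE 0.051, interval -0.023 to 0.20). Ogdh had a log2 fold change of 0.071, Mdh2 of 0.066, Sucla2 of 0.045, Suclg1 of 0.043, Idh3a of 0.038, Idh3b of 0.030 and Fh1 of 0.028. The lowest edgeR quasi-likelihood adjusted p of the 9 was 0.941, and 0 of the 9 had an unadjusted p under 0.05 with edgeR, DESeq2 or limma on log2 FPKM, beside 5.33% of all genes with edgeR. Over all 18245 genes tested 0 were called with edgeR, that is 0%. The 95% intervals of the 9 enzymes ran from 0.945-fold to 1.15-fold. The median log2 fold change was 0.045 for the 9 enzymes and 0.00048 for all genes, of which 50.1% were above 0. The groups did not overlap for 1 of the 9 (Idh3g), beside 8.87% of all genes. Some marker lists of cord cells were higher in SNI as well, neurons in 8 of 9 genes (median 0.11) and oligodendrocytes in 7 of 7 (median 0.12). Microglial markers were higher in 6 of 6 tested (median 0.19, 4 with an unadjusted edgeR p under 0.05). Astrocyte markers were higher in 5 of 7 (median 0.047), and endothelial markers were lower in 6 of 6 (median -0.092). With edgeR 0 genes of these lists were called. The part of these cell types in the enzymes' differences was not tested. The enzymes' median was 0.043 without sham replicate 1, 0.10 without sham replicate 2 and 0.027 without sham replicate 3. Leaving out 1 library, Cs ranged from 0.051 to 0.12, Ogdh from 0.024 to 0.11, Mdh2 from 0.032 to 0.12 and Sucla2 from 0.011 to 0.10, each lowest without sham replicate 3 and highest without sham replicate 2. Suclg1 ranged from 0.016 without sham replicate 1 to 0.082 without sham replicate 2, and Fh1 from 0.010 without sham replicate 1 to 0.041 without SNI replicate 2. Idh3g ranged from 0.084 to 0.11. Without sham replicate 3 the log2 fold change was -0.010 for Idh3a and -0.0012 for Idh3b.

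SNI+LDN193189 against SNI asked what the inhibitor changed in injured mice. Of the 9 enzymes 7 had a higher and 2 a lower mean with the inhibitor, and 0 passed the test. Idh3g was at 106 ± 5.66 CPM with LDN193189 and 101 ± 1.88 without (SD, n = 3 each), a log2 fold change of 0.068 (SE 0.052, 95% interval -0.043 to 0.18). Suclg1 had a log2 fold change of 0.055, Idh3b of 0.049, Sucla2 of 0.039, Cs of 0.036, Fh1 of 0.035 and Mdh2 of 0.021. The lower ones were Idh3a at -0.021 and Ogdh at -0.015. The lowest edgeR adjusted p of the 9 was 1.00 after rounding, and 0 had an unadjusted p under 0.05 with edgeR, DESeq2 or limma, beside 3.88% of all genes with edgeR. The 95% intervals ran from 0.912-fold to 1.13-fold. Of all genes 0.00548% were called, 49.8% were above 0 and the median was -0.00075, beside a median of 0.036 for the 9. The groups did not overlap for 0 of the 9 enzymes and for 11.3% of all genes. Idh3a turned to 0.0016 and Ogdh to 0.020 without SNI replicate 1, Ogdh to 0.0064 without SNI+LDN193189 replicate 3, and Mdh2 to -0.023 without SNI+LDN193189 replicate 2.

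SNI+LDN193189 against sham compared the treated injured cord with the uninjured one, using the same sham and SNI+LDN193189 libraries as the comparisons above. All 9 enzymes had a higher mean in SNI+LDN193189, by 1.01-fold to 1.12-fold, and 0 passed the test over all genes. Idh3g stood at 106 ± 5.66 CPM against 94.2 ± 1.23 (SD, n = 3 each), a log2 fold change of 0.16 (SE 0.053, 95% interval 0.052 to 0.28) with an edgeR adjusted p of 0.46. Cs stood at 320.4 ± 8.05 against 294 ± 13.4 CPM, a log2 fold change of 0.12 (SE 0.051, interval 0.013 to 0.23) with an edgeR adjusted p of 0.557. These were the 2 enzymes with an unadjusted p under 0.05, with edgeR as with DESeq2 and limma on log2 FPKM by count, and 8.56% of all genes had such a p with edgeR. Suclg1 had a log2 fold change of 0.098, Mdh2 of 0.087, Sucla2 of 0.085, Idh3b of 0.079, Fh1 of 0.063, Ogdh of 0.056 and Idh3a of 0.017. The median was 0.085 for the 9 and -0.0069 for all genes, of which 48% were above 0 and 0.0164% were called. The 95% intervals of the 9 ran from 0.936-fold to 1.21-fold. The groups did not overlap for 3 of the 9 (Cs, Idh3g and Fh1), beside 13.1% of all genes. Without sham replicates 1, 2 and 3 in turn Idh3g stood at 0.15, 0.17 and 0.16, and Cs at 0.12, 0.16 and 0.087. The median of the 9 was 0.063, 0.14 and 0.052 in the same order, and without sham replicate 3 Ogdh was at 0.0081 and Idh3a at -0.032. In a joint test of the 3 groups 0 of the 9 passed with edgeR, DESeq2 or limma, and 0.00548% of all genes were called with edgeR. Idh3g had the lowest joint p of the 9, unadjusted 0.0225 and with edgeR adjusted 0.793.

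**Figure D3:**
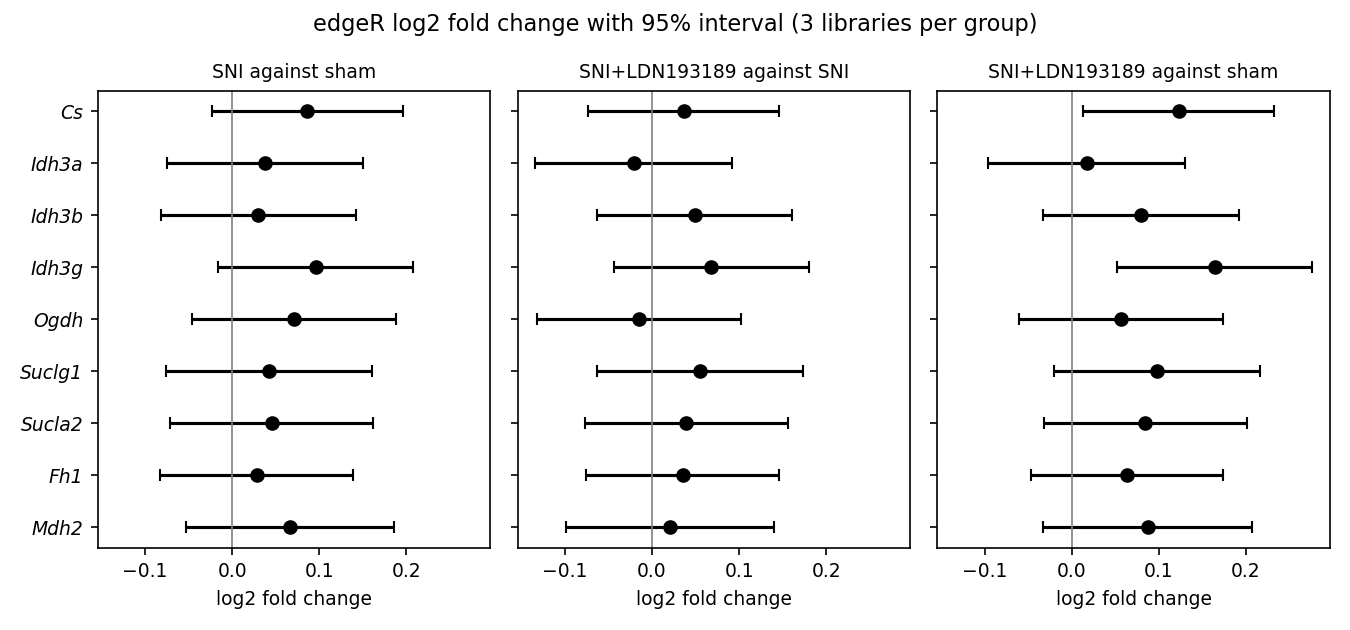
Log2 fold change of each enzyme in the 3 comparisons (points) with its 95% interval from the edgeR fit (bars), 3 libraries per group, on a shared axis. The intervals of Cs (0.013 to 0.23) and Idh3g (0.052 to 0.28) in SNI+LDN193189 against sham are the 2 of 27 that leave out 0 before adjustment over all genes.

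In some libraries most of the enzymes were high or low together. In sham replicate 3 all 9 were below their own mean over the 9 libraries, with an average of -0.097 in log2 CPM, and in sham replicate 1 there were 8 below, with an average of -0.063. In sham replicate 2, by contrast, 6 were above their own mean and the average was 0.017. SNI replicate 1 and SNI+LDN193189 replicates 1 and 2 had 8, 7 and 7 above. SNI replicates 2 and 3 and SNI+LDN193189 replicate 3 were mixed, with 3, 6 and 5 above. Their averages were -0.024, 0.013 and 0.0067. Whether other abundant genes did the same was not tested. Sham replicate 3 held the lowest value of 6 enzymes and sham replicate 1 of the other 3, and for 8 of the 9 the highest sham library was replicate 2. The highest values were in SNI+LDN193189 replicate 2 for 4 enzymes, in SNI+LDN193189 replicate 1 for 3 and in SNI replicate 1 for 2. Sham replicate 3 also had the highest sum of nerve root markers (4625 CPM) and of meningeal fibroblast markers (843 CPM), and the lowest sum of neuronal markers (8816 CPM). Its sums of astrocyte (5667 CPM) and microglial markers (200.8 CPM) were the lowest of all libraries too, and its endothelial sum (289 CPM) was the highest. The muscle markers were those of sham replicate 1. Neuronal markers summed to 8816 to 10213 CPM in sham, 9656 to 10442 in SNI and 9453 to 10289 in SNI+LDN193189. The summed CPM of the 9 enzymes divided by that of the neuronal markers, a ratio chosen after the values were seen, was 0.182 to 0.192 in sham, 0.181 to 0.188 in SNI and 0.185 to 0.194 in SNI+LDN193189. That ratio overlapped between all 3 groups. The undivided sum of the 9 enzymes overlapped too, at 1691 to 1860 CPM in sham, 1800 to 1892 in SNI and 1833 to 1903 in SNI+LDN193189. Overlap was thus present before the division, and the part of neuronal content in the enzymes' differences was not tested. With the summary of nerve root markers as a covariate, the log2 fold change from sham to SNI was 0.13 for Idh3g. It was 0.078 for Suclg1, 0.058 for Fh1, 0.036 for Mdh2 and 0.024 for Cs. For Sucla2 it was 0.014, for Idh3b 0.013, for Ogdh 0.0010 and for Idh3a -0.038. The edgeR adjusted p was 0.998 or above for each. Summed nerve root markers were 615 to 4625 CPM in sham and 178 to 633 in SNI, so the fit separates marker level from group only in part. From sham to SNI+LDN193189 the log2 fold change with this covariate was 0.18 for Idh3g, 0.11 for Suclg1 and 0.095 for Cs. It was 0.077 for Fh1, 0.073 for Mdh2, 0.072 for Idh3b, 0.071 for Sucla2, 0.026 for Ogdh and -0.016 for Idh3a. The edgeR adjusted p was 0.417 for Idh3g and higher for the others. The part of muscle, meningeal and ganglion RNA in the enzymes' differences was not tested.

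**Figure D4:**
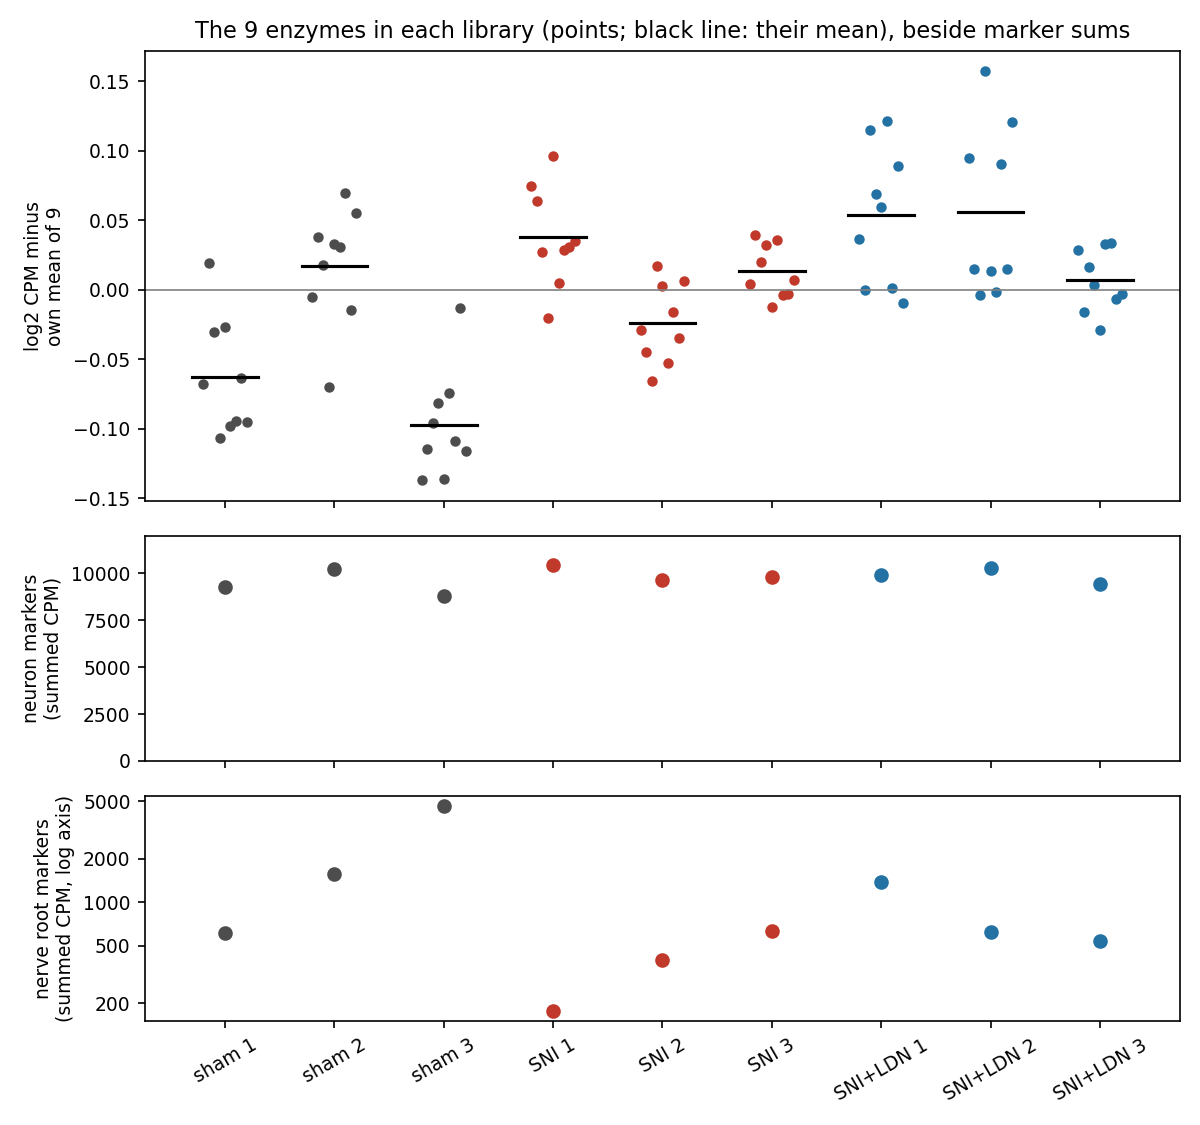
Top, log2 CPM of each of the 9 enzymes minus its own mean over the 9 libraries (points) and their average (black line) in each library. Middle, summed CPM of neuronal markers on an axis from 0, and bottom, summed CPM of nerve root markers on a log axis, in the same libraries, where sham replicate 3 has the lowest enzymes (average -0.097), the lowest neuronal sum (8816 CPM) and the highest nerve root sum (4625 CPM). The sums of astrocyte and microglial markers, not drawn, were also lowest in that library.

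A list of 8 other genes of the cycle also held small differences. In SNI against sham all 8 of Dlst, Dld, Ogdhl, Suclg2, Sdha, Sdhb, Sdhc and Sdhd had a higher mean (median 0.072). With the inhibitor 7 of 8 were higher than in SNI (median 0.034), and all 8 higher than in sham (median 0.10). With edgeR 0 of these passed in any comparison. An unadjusted edgeR p under 0.05 was found for 0, 0 and 4 of them, beside 5.33, 3.88 and 8.56% of all genes. Sdhb, the iron-sulfur subunit of succinate dehydrogenase, was named for its small p in this list. It stood at 90.1, 93.7 and 89.2 CPM in sham, 96.7, 97.5 and 95.8 in SNI and 99.0, 97.9 and 99.6 in SNI+LDN193189. No 2 of its groups overlapped, and the injured groups were parted only by 97.5 and 97.9 CPM. Pair by pair, groups did not overlap for 8.87, 11.3 and 13.1% of all genes in the order of the comparisons. The share of genes with all 3 groups apart was not computed. The log2 fold change of Sdhb from sham was 0.087 in SNI and 0.12 with the inhibitor, with edgeR adjusted p of 0.941 and 0.548. Suclg2 had log2 fold changes of 0.12, 0.038 and 0.16 in the 3 comparisons in the order above. Those of Ogdhl were 0.075, 0.056 and 0.13. Dlst and Dld encode the E2 and E3 subunits that work with Ogdh. Dlst had log2 fold changes of 0.069, 0.049 and 0.12, and Dld of 0.052, 0.037 and 0.089. The summed CPM of the 9 enzymes was 1.39 ± 0.0149 times that of this list (SD, n = 9), a ratio also chosen after the values were seen, and ranged from 1.38 to 1.42 in sham, 1.38 to 1.40 in SNI and 1.37 to 1.41 in SNI+LDN193189.

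Genes around the cycle gave 0 calls with edgeR as well. Of 12 genes for cytosolic or NADP-dependent isoforms and for shuttles, 10 had a higher mean in each comparison taken alone, and 8 in all 3 (medians 0.023, 0.028 and 0.077). Idh1, the cytosolic NADP enzyme, had log2 fold changes of 0.098, -0.11 and -0.012, and Idh2 of -0.13, 0.19 and 0.057. Mdh1 had 0.059, 0.023 and 0.082, and the citrate carrier Slc25a1 had 0.14 in SNI+LDN193189 against sham. Of 5 genes for reactions that add to or draw on intermediates of the cycle (Pcx, Glud1, Me1, Me2, Me3) 4, 3 and 5 were higher in the same order. Pyruvate carboxylase, Pcx, had 0.078 in SNI against sham and 0.090 in SNI+LDN193189 against sham, and the glutamate dehydrogenase Glud1 had 0.054 in SNI against sham. The malic enzymes had 0.067 (Me1) and 0.056 (Me2) in SNI+LDN193189 against SNI, and Me1 had 0.071 in SNI+LDN193189 against sham. Among 6 regulators of mitochondrial genes 4, 1 and 3 were higher. Gabpa, a subunit of a factor that binds promoters of such genes, had -0.11, -0.052 and -0.16. The coactivator Ppargc1a had 0.084 in SNI against sham. Tfam, a transcription factor of mitochondrial DNA, had 0.066 in SNI+LDN193189 against SNI and 0.12 against sham. Their lowest edgeR adjusted p over the 3 lists and comparisons was 0.599, and 0 had an unadjusted p under 0.05.

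Ratios within a library remove differences in scaling and show how subunits stood to each other. Protein complexes of NAD-dependent isocitrate dehydrogenase hold more alpha than beta or gamma subunits, which mRNA levels do not measure. The FPKM of Idh3a was 0.795 ± 0.027 times that of Idh3b and 1.39 ± 0.0871 times that of Idh3g (SD, n = 9). The first ratio rests on fixed lengths of 2393 bases for Idh3a and 1508 for Idh3b, whose counts may hold reads of Nop56. In CPM Idh3a was above Idh3b, with sham means of 235 and 184. Of 10 ratios computed, the groups did not overlap for 0 when SNI was set against sham. They did not overlap for 3 when the inhibitor group was set against SNI and for 1 when it was set against sham. In CPM the groups did not overlap for 8.87, 11.3 and 13.1% of single genes. That is another measure, and no share over ratios of other gene pairs was computed. Cs over Idh3a was 0.986 to 1.03 in sham, 1.02 to 1.06 in SNI and 1.07 to 1.11 in SNI+LDN193189, where the treated group lay above both others. Idh3a over Idh3b was 0.806 to 0.815 in SNI and 0.734 to 0.805 in SNI+LDN193189, and Ogdh over Dlst 0.838 to 0.858 and 0.796 to 0.831. Sham values of these 2 ratios, 0.784 to 0.823 and 0.824 to 0.879, overlapped with both. For Idh3a over Idh3b the injured groups were parted only by 0.8056 in SNI replicate 3 and 0.8050 in SNI+LDN193189 replicate 2. The error from counting reads was 1.08 to 1.23% of the mean count for either gene in these groups. The ratios were not tested.

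**Figure D5:**
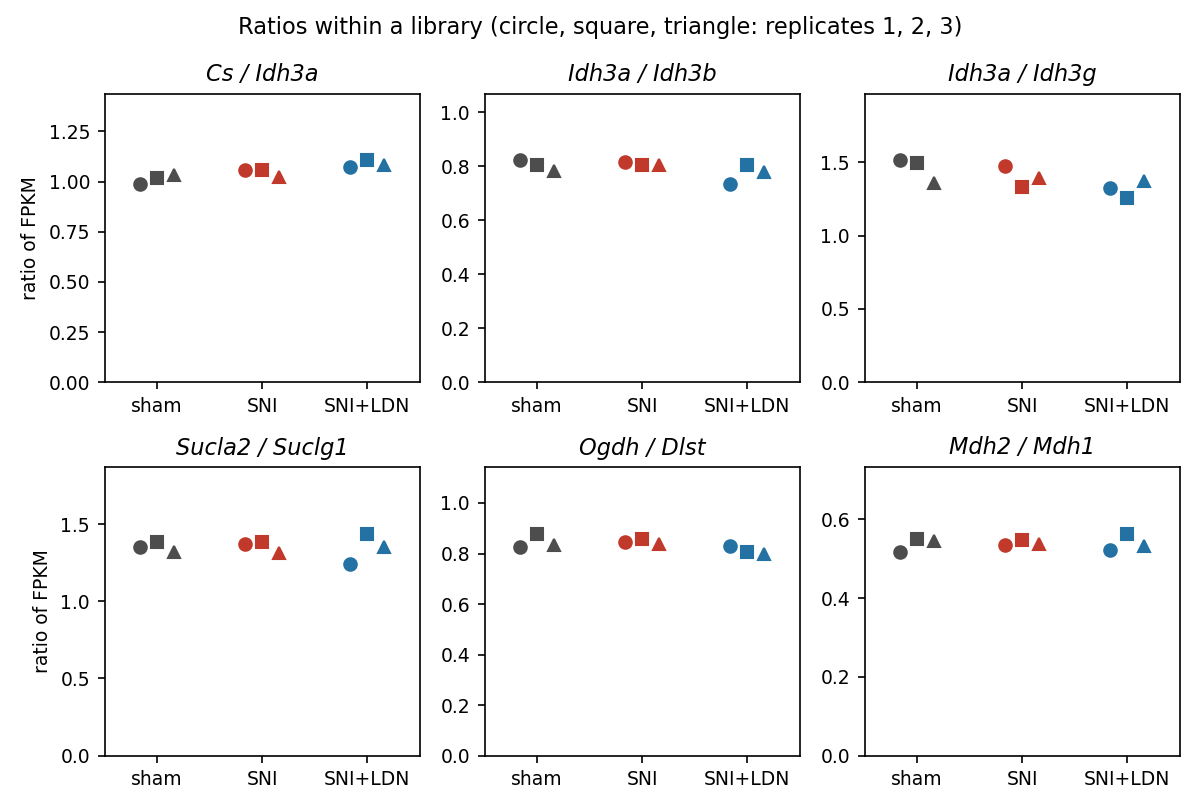
Ratio of the FPKM of 2 genes within each library for 6 of the 10 pairs, by group, with replicates 1, 2 and 3 as circle, square and triangle, on axes that start at 0. Cs over Idh3a lies at 0.986 to 1.03 in sham and 1.07 to 1.11 in SNI+LDN193189 (written SNI+LDN), and Mdh2 over Mdh1 at 0.518 to 0.551 and 0.523 to 0.564.

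Promoters were searched because in some libraries most of the enzymes' levels were high or low together. RefSeq (GRCm38.p6) start sites were found for 8 of the 9 genes, all but Idh3a, with 6 starts for Ogdh, and the 250 bases before each start were searched on both strands. Of the 27025 genes with a window 4.23% held the core of the nuclear respiratory factor 1 motif, and of the 8 enzymes it was found for Sucla2. The motif AAGGTCA of estrogen-related receptors was before 4.70% of all genes and 0 of the 8 enzymes. CCGGAAG, an ETS motif that GABP can bind, was before 7.83% of genes, and AAGATGGCG, a YY1 motif, before 0.710%, and both were found for Idh3g. The GC box GGGCGGG, a motif of Sp1 factors, was before 25.7% of genes and 5 of the 8 enzymes, Cs, Ogdh, Sucla2, Fh1 and Mdh2, as well as 17 of the 36 genes of all pathway lists with a window, the enzymes included. The 250 bases before each of the enzymes' 13 starts held 9 to 35 CpG, beside a median of 6 over the same stretch of all windows. The lowest and the highest of these counts were at starts of Ogdh. CCAAT was before 37.5% of genes and 4 of the 8 enzymes (Cs, Idh3b, Ogdh and Fh1), and TATAAA before 14.3% and 0 of the 8. Matches of different motifs were counted without regard to overlap. The stretches below are shown for Idh3g and Cs, the enzymes with the smallest p in SNI+LDN193189 against sham, and for Sucla2, with the matches in capitals. They lie at chrX:73786970-73787052 (minus strand), chr10:128337681-128337726 (plus strand) and chr14:73552744-73552785 (plus strand), each 5′ to 3′ on the gene's strand. The RefSeq start used for Sucla2 lies inside the span that GENCODE gives the gene, downstream of the GENCODE start. In Idh3g the capitals mark the YY1 and the ETS match, in Cs a GC box and in Sucla2 the match to the respiratory factor motif. A match describes letters and does not show that a factor binds.
Idh3g: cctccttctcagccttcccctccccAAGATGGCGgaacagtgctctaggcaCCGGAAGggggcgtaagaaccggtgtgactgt
Cs: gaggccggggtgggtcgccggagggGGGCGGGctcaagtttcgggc
Sucla2: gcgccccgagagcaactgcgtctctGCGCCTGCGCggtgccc

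Of 18205 tested genes outside the pathway lists, the 5 whose log2 CPM over the 9 libraries followed the average of the 9 enzymes most closely were Reep2, Tmx2, Slc25a5, Pgk1 and Ube2v1. Their Pearson r was 0.977, 0.977, 0.964, 0.962 and 0.960, which describes 9 libraries that share tissue makeup and scaling and were picked as the highest of all genes. Slc25a5 encodes an ADP/ATP carrier of the inner mitochondrial membrane and Pgk1 a glycolytic kinase. They ranged from 224 to 254 CPM and from 329 to 369.6 CPM over the libraries, spans as narrow as those of the 9 enzymes.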

How the data were processed

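Per the labels' protocols, mRNA was enriched on its poly(A) tails and strand-specific libraries were sequenced paired-end. The authors deposited whole-number read counts per gene symbol and FPKM values. Per the submitters' processing notes the build was mm10, and the aligner, counter and annotation are not given in the sources used here. In 24535 of 24535 genes with a count in 2 or more libraries, the deposited FPKM equalled the count over the product of library total and 1 fixed length (relative tolerance 1e-09). Counts were tested with edgeR 4.0.16 (R 4.3.3) by robust quasi-likelihood F tests after filterByExpr, which kept 18245 genes, with TMM factors of 0.984 to 1.02. A model with a mean for each of the 3 groups used every library, leaving 6 residual degrees of freedom, and its biological coefficient of variation was 0.132. Benjamini-Hochberg adjustment ran over all genes, and genes under 0.05 were called. Alternatives used DESeq2 1.42.0 and limma 3.58.1 on log2(FPKM + pseudocount), with pseudocounts of 0.1 and 1, other scalings and filters, a covariate, a replicate block and each library left out. The fit was also run on simulated data with planted changes far larger than those of the enzymes. That run does not bear on differences as small as theirs. The 9 enzymes and all lists were chosen with earlier results of these data known. Other genes were named by rule, the 2 with the smallest p per list and comparison, 7 partner genes fixed by name, and the 5 most alike. The counts of each enzyme were at least 2490 in every library, a counting error of 0.916 to 1.96% of the mean beside a spread between libraries of a group of 1.07 to 6.99%. Counting error exceeded that spread in 2 of 27 cases, Idh3g in sham and Idh3a in SNI+LDN193189. Gene positions are from GENCODE M21 on GRCm38. Some values are not reported here.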

Additional observations from a re-analysis of the deposited data

How the results depend on the processing

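In 20 alternative settings 0 of the 9 enzymes passed in any comparison or in the joint test. Of their 540 fold changes 21 changed sign, and the lowest adjusted p was 0.512 for SNI against sham, 0.899 for SNI+LDN193189 against SNI and 0.215 for SNI+LDN193189 against sham. Leaving out sham replicates 1 and 3 together was added after seeing the data. These libraries held the lowest value of every enzyme, so the turn of signs there follows from the choice and is no check, and the lone sham library is assumed to vary like the other groups. Counts over all genes moved, and the causes were not tested. For SNI against sham they were 25 with DESeq2, 13 with the nerve root covariate, 2 with limma without a filter, 20 without sham replicates 1 and 3 together and 0 to 38 leaving out 1 library, with 38 without sham replicate 1. For SNI+LDN193189 against SNI they were 7 with DESeq2, 2 without a filter, 0 with the covariate, 0 and 0 with limma at pseudocounts 0.1 and 1, 2 with limma without a filter, 3 with the 2 groups only, 3 without the 2 sham libraries and 0 to 2 leaving out 1. For SNI+LDN193189 against sham they were 62 with DESeq2, 30 without a filter, 11 with the covariate, 1 and 1 with limma, 10 without the 2 sham libraries and 1 to 17 leaving out 1. In the joint test they were 69, 25 and 16 with DESeq2, no filter and the covariate, 0 and 0 with limma, 4 with limma without a filter, 25 without the 2 sham libraries and 1 to 19 leaving out 1. Same-numbered libraries correlated from -0.103 to 0.148, so the numbers were not taken as pairs. With the replicate block 0 genes were called in SNI+LDN193189 against SNI and 5 in the joint test. With the covariate the log2 fold changes that turned were Idh3a -0.038 and Dlst -0.021 in SNI against sham, Idh3a 0.022, Ogdh 0.025 and Gabpa 0.041 in SNI+LDN193189 against SNI, and Idh3a -0.016 in SNI+LDN193189 against sham. Without the 2 sham libraries those of SNI against sham were Idh3a -0.017, Idh3b -0.022, Ogdh -0.0030, Suclg1 -0.033, Sucla2 -0.066, Mdh2 -0.038, Pcx -0.034, Glud1 -0.016, Gabpa 0.014, Dld -0.010 and Mdh1 -0.010, and those of SNI+LDN193189 against sham Idh3a -0.038, Ogdh -0.018, Sucla2 -0.027, Mdh2 -0.018 and Pcx -0.022. Leaving out 1 library, values in SNI against sham ranged from -0.010 to 0.067 for Idh3a and -0.0012 to 0.057 for Idh3b. In SNI+LDN193189 against SNI they ranged from -0.051 to 0.0016 for Idh3a, -0.038 to 0.020 for Ogdh, -0.023 to 0.043 for Mdh2 and -0.0045 to 0.082 for Suclg2. In SNI+LDN193189 against sham they ranged from -0.032 to 0.046 for Idh3a, -0.058 to 0.029 for Idh1 and -0.0076 to 0.11 for Idh2. The shares of counting error and of spread between libraries in the intervals were not separated.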
